A study of Mus musculus with 15 samples.

Results

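The genes described here belong by name to 5 families, whose proteins build the axoneme, the microtubule core of a motile cilium. They are all rows of the gene count table whose symbol is Dnah, Cfap, Tekt or Drc followed by a digit, or starts with Rsph, and whose description does not name a pseudogene. This gave 72 of 57010 genes, with 40 Cfap, 16 Dnah, 8 Rsph, 5 Tekt and 3 Drc genes. One row counted as Dnah, Dnah2os, is a transcript annotated opposite Dnah2 and not a dynein gene. Of these, 69 passed the filter on low counts, and Cfap107, Cfap97d1 and Rsph6a did not. C57BL/J mice gave lung RNA at day 30, and total RNA was sequenced in 4 groups. Control mice received physiological saline (n = 4 libraries), the DMSO group a dimethyl sulfoxide solution (n = 4), the silica group nasal drops of a silica suspension (n = 3), and the silica_DMSO group silica followed by DMSO on the second day (n = 4). Libraries are named by group and by the number in their label. The labels do not say whether libraries come from separate animals, so the p-values measure the spread between these libraries, which may in part be technical.

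In the airway, motile cilia of multiciliated epithelial cells sweep mucus out of the lung. Their beat is driven by dynein arms, in which the very large Dnah heavy chains are the motors. Radial spokes, built in part from Rsph proteins, and the nexin-dynein regulatory complex, which holds the Drc proteins, relay control to the arms. Tektins and many Cfap proteins line the inside of the microtubule doublets, while other Cfap proteins belong to the central apparatus, the dynein tethers or the machinery that assembles dynein before it enters the cilium. In these cells the program is switched on by Foxj1, a forkhead transcription factor, together with RFX factors.

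Library totals lay between 17434649 and 20829960 expected counts (a program's estimate of the reads per gene), of which the families took 0.0303% to 0.278%. In 3 libraries, labelled DMSO 7, silica_DMSO 4 and silica_DMSO 6, thymocyte markers summed to between 6376 and 8152 normalised CPM (counts scaled to library size, with TMM factors) over 9 genes, against 40.3 to 106 in the other 12. Alveolar type 2 markers, which check the lung label, summed to between 31591 and 92320 normalised CPM in the 12 libraries and to between 839 and 8818 in the 3. The 24 ciliated cell markers summed to between 38.3 and 598 normalised CPM in these 3 libraries and to between 1302 and 9765 in the other 12. Testis germ cell markers, whose cells also build axonemes, stayed between 1.16 and 43.8 normalised CPM in all libraries, with 1 of 10 markers passing the filter and 4 to 8 of the 10 at 0 in each library. In bulk RNA, fewer ciliated cells and less ciliary RNA per cell cannot be told apart.

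Levels are compared between genes in TPM, which accounts for gene length, and as means of the 12 libraries without high thymocyte markers. For some genes TPM did not follow the length in the count table. Dnah7a (12245 bases) was at 9.15 normalised CPM and 5.49 TPM, and Dnah5 (15637 bases) at 53.4 normalised CPM and 3.01 TPM. TPM levels of single long genes are therefore uncertain. The radial spoke family had the highest median level, 33.1 TPM over 7 tested genes, and its highest member was Rsph1, a spoke head protein, at 55.3 TPM. The 3 Drc genes lay between 8.02 and 21.8 TPM, with Drc3 the highest. The 5 tektins ranged from 0.484 to 21.7 TPM, with Tekt1 the highest. The 38 tested Cfap genes had a median of 6.69 TPM and spread from 0.593 to 115 TPM, and Cfap141, a small protein of the doublet lumen, was the highest of all 69. The 16 Dnah rows, Dnah2os included, had the lowest median, 1.92 TPM, and none exceeded 5.49 TPM.

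Length divides these families sharply. By the gene length given in the count table, 29 tested members exceed 3000 bases (15 Dnah, 13 Cfap and Rsph4a), with a median of 12009 bases. The other 40 have a median of 1739 bases. The members next to the division are Drc7 at 2832 and Rsph10b at 2878 bases below it, and Cfap91 at 3048 and Cfap58 at 3353 bases above it. The median level was 3.05 TPM for the long and 9.79 TPM for the short members.

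Long and short axoneme genes did not follow each other from library to library. For each gene, the deviation is its log2 normalised CPM in a library minus its median over the 12 libraries without high thymocyte markers. In DMSO 4 the median deviation was 2.17 for the short members and 0.06 for the long ones. In silica_DMSO 5 these medians were 0.82 and -1.48, and in silica 7 they were 0.98 and 0.06. Control 1 and DMSO 1 tilted the same way, at 0.15 against -0.58 and at 0.80 against 0.34. The opposite tilt was seen in silica 1, with -1.15 for the short and -0.37 for the long members, and in control 4, with -0.59 and -0.09. Control 2, control 7, DMSO 6 and silica_DMSO 2 tilted like silica 1 by 0.17 to 0.45 between the medians, and in silica 2 the medians differed by 0.002. Each of the 4 groups held libraries with either tilt.

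**Figure D1:**
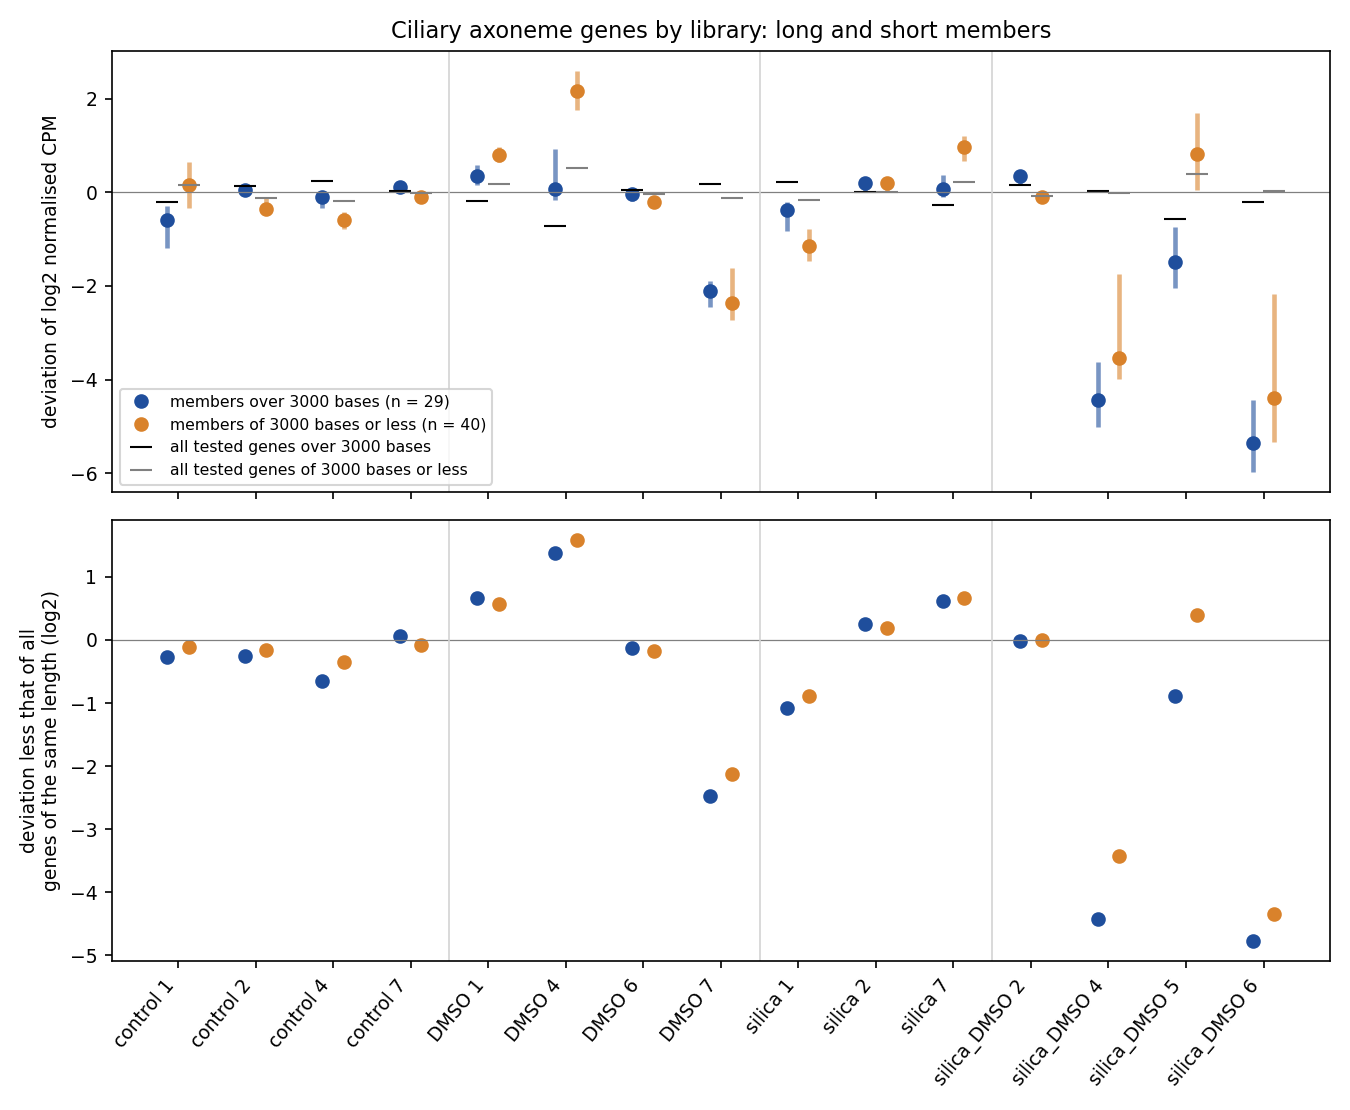
Upper panel, deviation of log2 normalised CPM from the 12-library median by library: points are medians and bars interquartile ranges of the 29 long (blue) and 40 short (orange) members, and dashes are medians of all tested genes in the same length class. Lower panel, medians after subtracting the deviation of all genes of the same length; among the 12 libraries without high thymocyte markers the blue and orange points part visibly in silica_DMSO 5.

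Among the 12 libraries without high thymocyte markers, all tested genes tilted with length in those where the members did. Among all genes, the long-minus-short difference in median deviation was -1.24 in DMSO 4, -0.96 in silica_DMSO 5 and -0.50 in silica 7, and 0.38 in silica 1 and 0.43 in control 4. The members' own differences in these libraries were -2.11, -2.30, -0.91, 0.78 and 0.50. Over the 12 libraries the 2 differences had a Pearson correlation of 0.979 and a Spearman correlation of 0.965, given as a description since both come from the same libraries. In DMSO 7, silica_DMSO 4 and silica_DMSO 6 the members' differences were 0.25, -0.91 and -0.96, against 0.31, 0.04 and -0.23 for all genes. Genes over 3000 bases took 11.5% of all counts in silica_DMSO 5 and 12.4% in DMSO 4, against 44.9% in control 4. The long members' share of the families' counts was 11.1% in silica_DMSO 5, 16.8% in DMSO 4 and 52.2% in silica 1. What in the RNA or library preparation moves with length was not tested.

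Deviations also differed between finer length classes. In DMSO 4 the 8 members of up to 1000 bases had a median deviation of 2.97, the next 32, up to 3000 bases, 1.91, the next 12, up to 9000 bases, 0.85 and the 17 over 9000 bases -0.13. In silica_DMSO 5 the same 4 classes stood at 2.12, 0.68, -1.33 and -1.70, and in silica 1 at -1.48, -0.996, -0.60 and -0.35. Across the 69 members the Pearson correlation of deviation with log2 length was -0.80 in DMSO 4, -0.76 in DMSO 1, -0.73 in silica 7 and -0.65 in silica_DMSO 5. It was 0.63 in silica 1, 0.62 in control 2 and 0.60 in control 4. Within the short members alone it was -0.52 in DMSO 4, -0.70 in silica_DMSO 5 and 0.43 in silica 1, and within the long members alone -0.57, 0.11 and 0.42. In silica_DMSO 5 the correlation was thus negative among the short but not among the long members. There, 4 long members lay above 0, all over 9000 bases: Dnah14 at 3.58, Dnah8 at 1.59, Dnah7a at 0.72 and Dnah7c at 0.24. The correlation without these 4 was not tested. These correlations are across genes, which share the library and are not replicates.

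**Figure D2:**
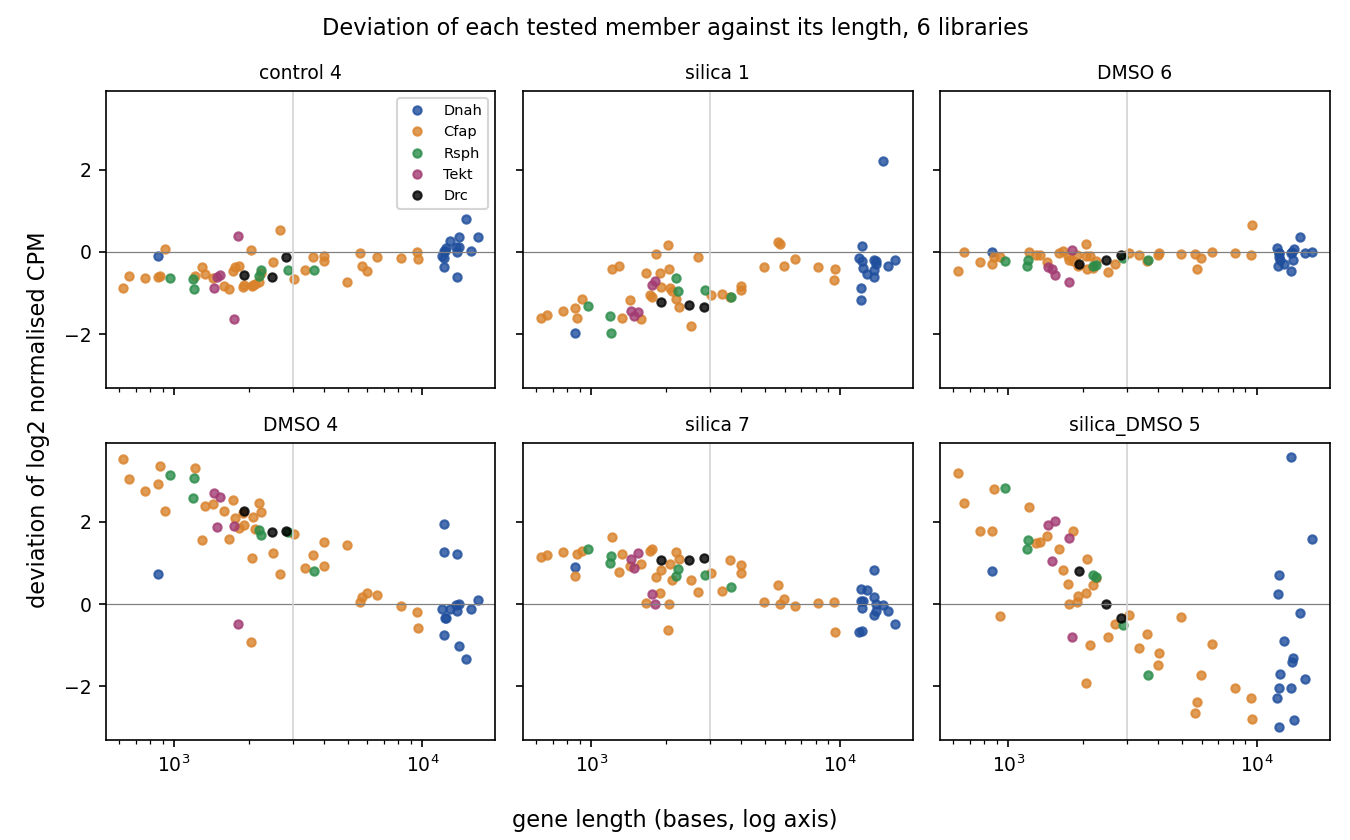
Deviation of log2 normalised CPM of each tested member against its gene length on a log axis, coloured by family, in 6 libraries; the grey vertical line is at 3000 bases. In DMSO 4 and silica_DMSO 5 the points descend with length, in silica 1 they ascend, and in DMSO 6 they lie near 0.

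Genes whose proteins sit in the same structure parted by length. Rsph9 (966 bases) and Rsph4a (3650 bases) both belong to the head of the radial spoke. Rsph9 was at 40.5, 11.5, 12.7 and 17.3 normalised CPM in control 1, 2, 4 and 7, at 49.3, 172, 16.8 and 3.77 in DMSO 1, 4, 6 and 7, at 7.78, 21.5 and 49.97 in silica 1, 2 and 7, and at 17.7, 1.72, 139 and 1.07 in silica_DMSO 2, 4, 5 and 6. In the same order Rsph4a was at 15.04, 38.7, 29.7 and 42.2 in control, 62.5, 70.9, 35.5 and 7.30 in DMSO, 18.8, 51.7 and 54.2 in silica, and 52.4, 1.34, 12.3 and 0.14 in silica_DMSO libraries. The groups overlapped for both genes. The ratio of Rsph9 to Rsph4a, a pair chosen after its values were seen, was 2.69 in control 1 and 0.298 to 0.426 in the other 3 controls, 2.43 in DMSO 4 and 11.3 in silica_DMSO 5. It was also above 1 in the silica_DMSO libraries with thymocyte markers, at 1.28 in silica_DMSO 4 and 7.67 in silica_DMSO 6 (95% exact interval 2.32 to 39.9 for counting error, from 23 and 3 counts), where all genes differed by length by 0.04 and -0.23. In the remaining 7 libraries it was 0.339 to 0.922.

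Rsph1 (1191 bases), also a spoke head gene, was at 91.1, 38.8, 34.3 and 44.9 normalised CPM in the controls, 105, 328, 43.1 and 7.78 in the DMSO libraries, 18.5, 62.0 and 109 in the silica libraries and 47.7, 3.81, 138 and 1.25 in the silica_DMSO libraries, in the order of the label numbers. Its highest values were in DMSO 4 and silica_DMSO 5, where Rsph9 was also highest. Rsph3a and Rsph3b, near-identical genes of the spoke stalk, are similar in length (2189 and 2243 bases), and their ratio stayed between 0.471 and 0.780 in all 15 libraries. Reads from such copies could be split between them in the counting, so the 2 levels are uncertain.

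Among the tektins, Tekt1 (1447 bases) was at 29.4, 15.5, 14.3 and 21.1 normalised CPM in control 1, 2, 4 and 7, at 47.0, 172, 20.5 and 4.25 in DMSO 1, 4, 6 and 7, at 9.66, 33.5 and 56.8 in silica 1, 2 and 7, and at 23.8, 1.51, 100.1 and 0.23 in silica_DMSO 2, 4, 5 and 6. Tekt5 (1803 bases), a tektin known from sperm flagella, was lower and did not share this pattern. It lay between 2.82 and 3.58 normalised CPM in the controls, between 0.52 and 2.47 in DMSO, between 1.41 and 2.39 in silica and between 0.51 and 2.05 in silica_DMSO libraries. These values rest on 11 to 71 counts per library. The Tekt5 differences did not pass the test described below.

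The shortest Cfap gene, Cfap141 (625 bases), reached 371 normalised CPM in DMSO 4 and 293 in silica_DMSO 5. Its other values were 53.7, 24.0, 17.3 and 25.7 in the controls, 101, 23.4 and 5.20 in DMSO 1, 6 and 7, 10.5, 32.5 and 70.7 in silica 1, 2 and 7, and 31.6, 4.48 and 0.51 in silica_DMSO 2, 4 and 6. The longest, Cfap47 (9568 bases), was at 1.88, 5.72, 2.99 and 6.01 in the controls, 5.66, 2.24, 5.35 and 1.10 in DMSO, 2.53, 4.28 and 2.08 in silica, and 3.85, 0.13, 0.41 and 0.05 in silica_DMSO libraries. In DMSO 4 and silica_DMSO 5, where Cfap141 was highest, Cfap47 was thus at 2.24 and 0.41, the latter from 4 counts. Its value in DMSO 4 lay above those in control 1 and silica 7. Cfap43 (5968 bases) and Cfap44 (6583 bases), which together tether the inner arm dynein, had a ratio of 7 in control 1 and of 1.01 to 2 in the other 11 of the 12 libraries. This pair was also chosen after its values were seen.

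Of the regulatory complex, Drc3 (1917 bases) was at 41.1, 30.9, 27.4 and 35.8 normalised CPM in the controls, 70.8, 195, 33.3 and 6.77 in DMSO, 17.4, 46.5 and 85.5 in silica, and 40.1, 4.52, 71.0 and 2.37 in silica_DMSO libraries. Drc7 (2832 bases) was at 18.9, 19.004, 20.3 and 23.1 in the controls, 35.3, 76.4, 20.99 and 3.24 in DMSO, 8.72, 32.3 and 48.3 in silica, and 23.9, 1.47, 17.4 and 1.02 in silica_DMSO libraries. Both were highest in DMSO 4, and the groups overlapped for both.

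The outer arm heavy chain Dnah5 (15637 bases), which is mutated in primary ciliary dyskinesia, was at 26.8, 57.8, 55.3 and 63.3 normalised CPM in the controls, 73.6, 49.7, 53.5 and 10.5 in DMSO, 42.8, 69.5 and 48.3 in silica, and 84.6, 2.43, 15.5 and 1.35 in silica_DMSO libraries. Its value in DMSO 4 lay within the range of the controls, unlike that of Tekt1. Dnah2os (859 bases), annotated on the strand opposite the inner arm gene Dnah2, lay between 0.61 and 5.14 normalised CPM in the 12 libraries. The counting is not stated to use strand, so its reads cannot be told apart from those of Dnah2. The Dnah7 copies Dnah7c (12207 bases) and Dnah7b (12318 bases) are similar in length. In normalised CPM, Dnah7c over Dnah7b was 6.93 in DMSO 4 and 7.06 in silica_DMSO 5, and 0.887 to 2.16 in the other 10 libraries. In TPM they did not part in this way, at 0.98 and 1.26 in DMSO 4 and 0.23 and 0.20 in silica_DMSO 5. Reads could be split between these copies too, so their levels are uncertain.

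**Figure D3:**
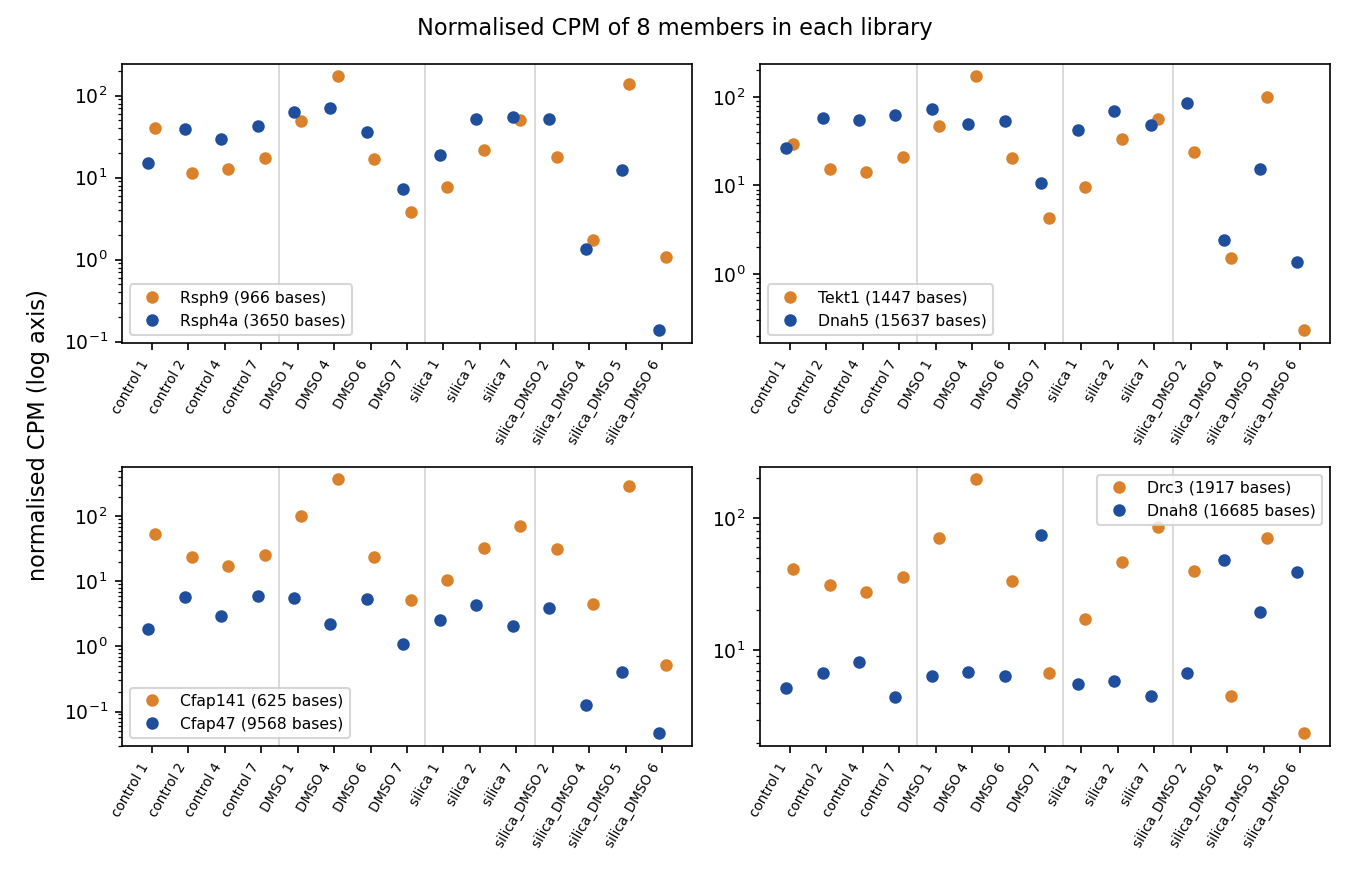
Normalised CPM (log axis) of 8 members in each of the 15 libraries, each panel pairing a short (orange) with a long gene (blue); grey lines part the control, DMSO, silica and silica_DMSO groups. Rsph9 lies above Rsph4a in control 1, DMSO 4 and silica_DMSO 4, 5 and 6, and Dnah8 is highest in the 3 libraries with thymocyte markers.

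Against genes of their own length, long and short members had similar medians in 11 of the 12 libraries. The deviation of all tested genes was smoothed along length in each library and subtracted, after which the 2 medians differed by at most 0.30 in these 11. In DMSO 4 the medians became 1.37 for the long and 1.58 for the short members, in DMSO 1 0.66 and 0.57, in silica 7 0.61 and 0.66, in silica 2 0.24 and 0.19, and in silica 1 -1.08 and -0.88. In silica_DMSO 5 they parted by 1.28, at -0.89 and 0.39. Foxj1 (2623 bases) was at 388 normalised CPM in DMSO 4, 219 in silica 7, 123 in DMSO 1, 125 in silica 2 and 46.7 in silica 1, and its own deviation against genes of its length in these libraries was 1.91, 1.06, 0.24, 0.24 and -1.13. Over the 12 libraries the median pairwise Pearson correlation of log2 CPM was 0.82 between short members, 0.60 between long members and 0.09 between a long and a short one. Foxj1 had a median correlation of 0.82 with short and 0.19 with long members. These values describe libraries that differ in composition and in length tilt.

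The families were low in the libraries with thymocyte markers. The median member stood at 18.7% of its mean in the other 12 libraries in DMSO 7, at 4.55% in silica_DMSO 4 and at 2.02% in silica_DMSO 6. Averaged over the 3, 54 of 69 members were under 20%, 6 at 20% to 50%, 4 at 50% to 100% and 5 above 100%, while the median over all tested genes was 87.8%. The 4 between 50% and 100% were Cfap418, Cfap20, Cfap410 and Dnah14. Dnah8 and Dnah17, the outer arm heavy chains best known from sperm, were at 746% and 731%, followed by Cfap74 at 185%, Cfap97 at 137% and Cfap20dc at 114%. Dnah8 was at 74.2, 48.0 and 39.0 normalised CPM in DMSO 7, silica_DMSO 4 and silica_DMSO 6, at 19.5 in silica_DMSO 5 and at 4.44 to 8.20 in the other 11. Dnah17 was at 4.48, 4.02 and 2.79 in the 3 libraries and between 0.08 and 2.06 in the other 12. Fewer than 10 counts lay on 2, 16 and 37 of the 69 members in DMSO 7, silica_DMSO 4 and silica_DMSO 6, so single low members are poorly measured there.

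**Figure D4:**
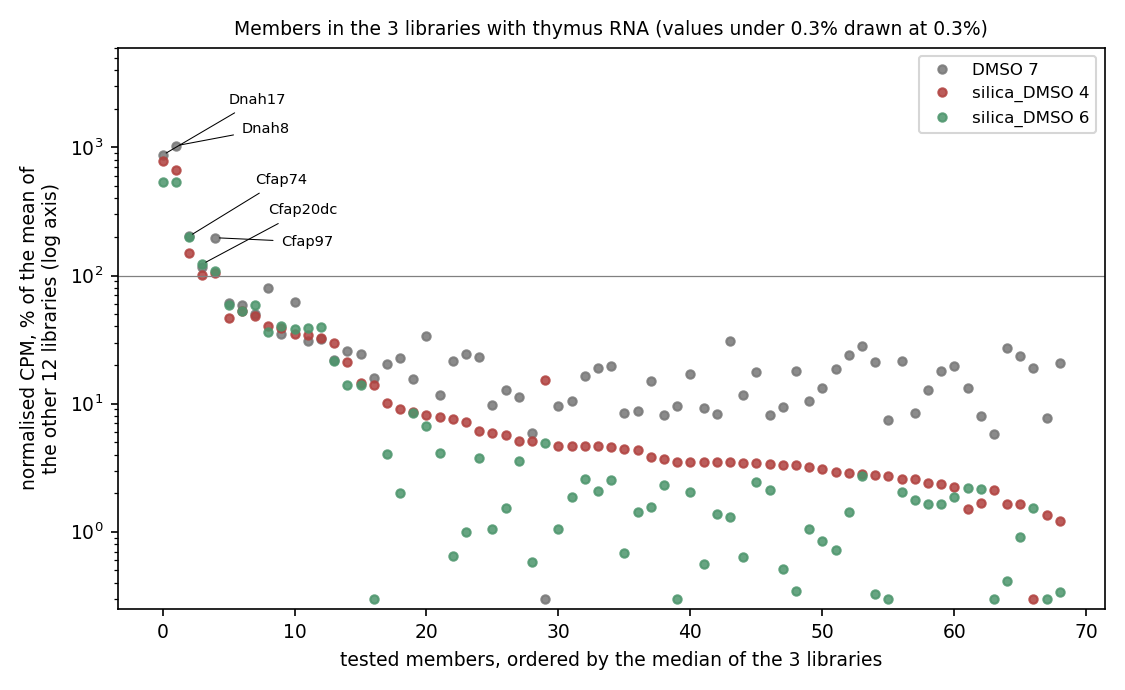
Normalised CPM of each tested member in the 3 libraries with high thymocyte markers, as a percentage of its mean in the other 12 libraries (log axis), ordered by the median of the 3. Dnah17, Dnah8, Cfap74, Cfap20dc and Cfap97 lie above 100%, and most others below 20%.

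For silica against control, no axoneme gene passed the test. edgeR's quasi-likelihood test called 0 of 69 members and 0% of 17879 genes at an adjusted p under 0.05, and 0 members had an unadjusted p under 0.05. DESeq2 called 0 members and 0.246% of genes, and limma-voom with quality weights 0 members and 8.22% of genes. The median log2 change was 0.24 for the members and 0.00 for all genes, at 0.07 for long and 0.39 for short members, and 55 of 69 had a positive change. Without silica 7 the members' median was -0.03, and on log2(TPM + 1) with limma-trend it was 0.07. Markers of other cell types differed in the same comparison, with median log2 changes of 1.34 for macrophages (10 of 10 positive), 0.67 for club cells (9 of 9), -0.90 for endothelium (0 of 10), -0.63 for alveolar type 1 cells (0 of 8) and -0.25 for alveolar type 2 cells (3 of 10). edgeR called 0 of these markers, and their part in the members' difference was not tested. The smallest p belonged to Dnah14, a dynein heavy chain, with a log2 change of -2.56 ± 1.39 (SE, adjusted p = 1.0). This difference rested on control 1, where Dnah14 was at 22.2 normalised CPM against 0.53 to 0.90 in the other controls and 0.61, 0.83 and 1.61 in the silica libraries, and without control 1 it was 0.58. The next were Tekt5 at -0.64 ± 0.58 and Tekt3, a sperm tektin, at 1.19 ± 1.22, both with adjusted p = 1.0.

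For DMSO against control, the short members had the larger differences in counts, but the median over all members changed direction with the unit. It was also near 0 when DMSO 4 was left out while DMSO 7, a library with thymocyte markers, was kept. The median log2 change was 0.71 over all members and 0.14 over all genes, with 1.18 for the short and -0.12 for the long members, and 53 of 69 were positive. On TPM with limma-trend the direction turned: the median was -0.18 with 22 of 69 positive at a pseudocount of 1 and -0.25 with 21 positive at 0.1, with -0.07 and -0.12 for the short members, while the median of all genes was -0.22 and -0.35. edgeR called 0 members and 0% of genes, and 1 member had an unadjusted p under 0.05. This was Dnah8, at 1.93 ± 0.80 (SE, unadjusted p = 0.030, adjusted p = 0.649), whose highest value lies in DMSO 7, the library with thymocyte markers. Cfap300, a dynein assembly protein, followed at 1.56 ± 0.90 and Tekt5 at -0.85 ± 0.53, with adjusted p of 0.649 and 0.662. DESeq2 called 0 members and 0.352% of genes. limma-voom with quality weights called 31 members, all higher, where it called 38.9% of all genes.

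Without the 3 libraries with thymocyte markers, 26 members had an unadjusted p under 0.05 for DMSO against control, all higher, where 8.62% of genes did, and the smallest adjusted p of a member was 0.513. The median change was then 0.93, with 1.52 for short and 0.17 for long members. With an offset for gene length in each of these 12 libraries the long and the short members had nearly the same median, 1.04 and 1.06, and 36 members had an unadjusted p under 0.05, where 10.4% of genes did. Removing DMSO 4 as well left medians of 0.58 and 0.42 and 0 members at an unadjusted p under 0.05, with only DMSO 1 and DMSO 6 in the group. In the fit of all 15 libraries, leaving out DMSO 4 alone gave a median of 0.07. Foxj1 had a log2 change of 0.83 ± 1.01 (SE, adjusted p = 0.776) in all libraries and 1.18 ± 0.59 (adjusted p = 0.513) without the 3. Markers of other cell types also differed in the fit of all 15 libraries, and edgeR called none of them. Their median change there was 0.86 for club cells (9 of 9 positive), 0.52 for macrophages (8 of 10) and -1.05 for endothelium (0 of 10). It was -0.92 for alveolar type 1 cells (0 of 8) and -0.66 for alveolar type 2 cells (3 of 10). Without the 3 libraries with thymocyte markers, these medians were 1.21, 0.69, -0.86, -0.68 and -0.40 in the same order. In DMSO 4 the median deviation was -2.15 for endothelial and -1.76 for alveolar type 1 markers. Scgb1a1, the club cell secretory protein, took 12.6% of counts in DMSO 4 against 3.34% to 12.5% in the controls. The part of these cell types in the members' differences was not tested.

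For silica_DMSO against silica, the median log2 change of the members was -0.79, against 0.05 for all genes, and 13 of 69 were positive. Long members were at -1.18 and short ones at -0.38, an order that TPM with a pseudocount of 1 turned, at -1.05 and -1.19. edgeR called 0 members and 0% of genes, with 1 member at an unadjusted p under 0.05, and DESeq2 called 0 members and 0.375% of genes. That member was Dnah8, at 2.41 ± 0.91 (SE, adjusted p = 0.708), followed by Cfap43 at -1.58 ± 0.99 and Cfap65, known from sperm flagella, at -1.64 ± 1.07, each with adjusted p = 0.708. limma-voom with quality weights called 64 members, 3 higher and 61 lower, where it called 68.7% of genes. In the 4 silica_DMSO libraries, 2 had thymocyte markers, and without the 3 such libraries the median change was -0.08, with -0.28 for long and 0.28 for short members. Leaving out silica_DMSO 2, the 1 library of the group with neither the markers nor the tilt of silica_DMSO 5, gave a median of -1.28.

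For silica_DMSO against DMSO, 3 of 69 members were positive and the median was -1.06, against -0.004 for all genes, with -1.01 for long and -1.09 for short members. edgeR called 0 members and 0% of genes and none had an unadjusted p under 0.05. DESeq2 called 0 members and 0.00559% of genes. The smallest p belonged to Cfap53, a doublet protein, at -1.82 ± 0.98, to Cfap418 at -0.68 ± 0.39 and to Cfap36 at -0.89 ± 0.52 (SE, adjusted p = 0.998 for each). limma-voom called 65 members, 2 higher and 63 lower, where it called 69.4% of genes. Without the 3 libraries the median was -0.56.

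The interaction asks whether DMSO changed the genes differently with silica than without. Its median was -1.30 for the members and -0.0002 for all genes, with 3 of 69 positive, and edgeR called 0 members and 0% of genes, with none at an unadjusted p under 0.05. DESeq2 called 0 members and 0.0447% of genes. Dnah14 had the smallest p at 3.73 ± 1.83 (SE, adjusted p = 1.0), and Cfap52 and Cfap53, both doublet proteins, were at -2.72 ± 1.63 and -2.26 ± 1.40. limma-voom called 65 members, 2 higher and 63 lower, where it called 60.5% of genes. Without the 3 libraries the median was -0.79. Silica and DMSO are both compared with the same controls, and the other comparisons share libraries too.

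**Figure D5:**
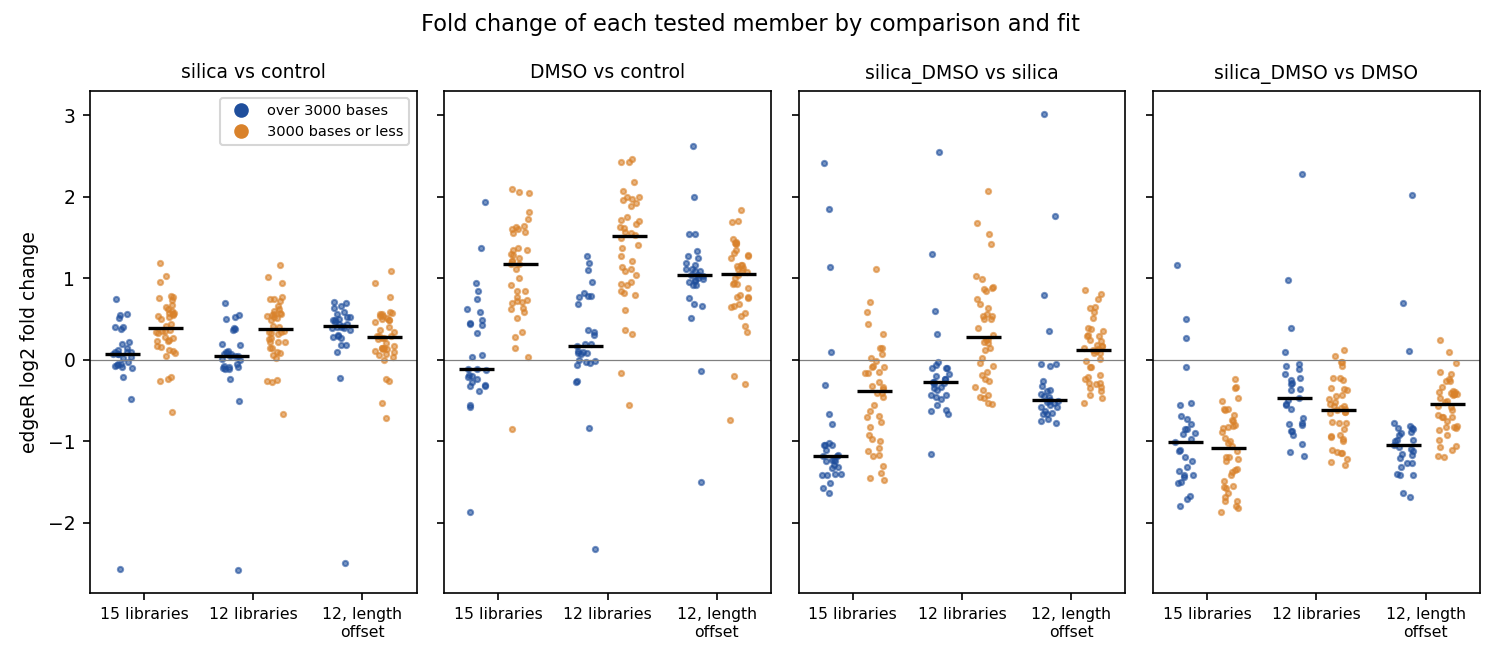
edgeR log2 fold change of each tested member by comparison, for the fit of all 15 libraries, of the 12 without high thymocyte markers, and of these 12 with an offset for gene length; blue are members over 3000 bases, orange those of 3000 bases or less, and black bars their medians. In DMSO against control the medians of the 2 classes meet, at 1.04 and 1.06, with the offset.

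Other cilium genes, from lists chosen with earlier results of these data known, lay alongside the members. In silica against control, the median log2 change was 0.43 for 10 dynein intermediate and light chains, 0.33 for 13 dynein assembly factors, 0.43 for 9 docking and ruler genes, 0.30 for 17 central pair and spoke partners, 0.58 for 11 transcription factors of multiciliogenesis and 0.18 for 26 intraflagellar transport genes. In DMSO against control these medians were 0.96, 0.92, 0.66, 1.05, 0.44 and 0.58, beside 0.71 for the members. In silica_DMSO against silica they were -0.51, -0.54, -1.40, -0.91, -0.73 and -0.20. These values come from the fit of all 15 libraries. Without the 3 libraries with thymocyte markers, the medians for DMSO against control were 1.11, 1.28, 0.93, 1.41, 0.64 and 0.72. For silica_DMSO against silica they shrank to -0.33, -0.05, -0.44, -0.14, -0.45 and -0.11. In that fit 9 dynein intermediate and light chains were tested. The gene of smallest p in each list for silica against control was Dnai4 at 0.44 ± 0.50, Dnaaf3 at 0.83 ± 0.71, Gas8 at 0.45 ± 0.52, Spag6l at 0.97 ± 1.14, Mcidas at 1.90 ± 0.96 and Ift140 at 0.45 ± 0.33 (log2 change ± SE, edgeR adjusted p = 1.0 for each). Gas8, placed here in the docking and ruler list, is a subunit of the nexin-dynein regulatory complex. Mcidas, a regulator of multiciliated cell fate, was low throughout, at 0.05 to 1.51 normalised CPM. edgeR called 0 genes of these lists in each comparison. For DMSO against control limma-voom with quality weights called 5 of 10, 10 of 13, 2 of 9, 10 of 17, 3 of 11 and 16 of 26 of them higher. The same test called 38.9% of all genes in either direction.

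Promoters were searched for letters that RFX and forkhead factors, the known regulators of this program, bind. RefSeq gives promoters of 250 bases before to 50 after the gene start (build GRCm38.p6) for 56 of the 69 tested members. The letters GTTGCC, a half-site of the motif that RFX factors bind, were found on either strand in 22 of these (39.3%), against 14.8% of 12765 tested genes with a promoter and 14.1% of all genes in the table. They were in 9 of 25 long and 13 of 31 short members. The forkhead letters GTAAACA were in 4 (7.14%), against 3.31% of tested genes. A match describes letters only. The promoters below show the half-sites in short and long members and a forkhead match in Cfap43, with matches on either strand in capitals, read 5′ to 3′ along the gene.
Tekt1 (chr11:72361833-72362132, minus strand): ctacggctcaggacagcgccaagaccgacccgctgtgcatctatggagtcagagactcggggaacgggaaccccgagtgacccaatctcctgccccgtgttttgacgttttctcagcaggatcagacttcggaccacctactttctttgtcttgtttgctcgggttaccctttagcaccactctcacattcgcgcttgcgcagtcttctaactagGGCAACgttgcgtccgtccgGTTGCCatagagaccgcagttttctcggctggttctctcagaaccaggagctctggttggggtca
Drc1 (chr5:30281143-30281442, plus strand): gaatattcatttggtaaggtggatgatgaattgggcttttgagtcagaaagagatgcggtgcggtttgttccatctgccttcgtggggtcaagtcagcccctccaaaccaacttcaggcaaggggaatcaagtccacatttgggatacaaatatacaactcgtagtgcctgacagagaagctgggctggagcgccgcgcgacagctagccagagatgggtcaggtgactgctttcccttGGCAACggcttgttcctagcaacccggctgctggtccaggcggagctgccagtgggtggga
Cfap141 (chr3:90062558-90062857, plus strand): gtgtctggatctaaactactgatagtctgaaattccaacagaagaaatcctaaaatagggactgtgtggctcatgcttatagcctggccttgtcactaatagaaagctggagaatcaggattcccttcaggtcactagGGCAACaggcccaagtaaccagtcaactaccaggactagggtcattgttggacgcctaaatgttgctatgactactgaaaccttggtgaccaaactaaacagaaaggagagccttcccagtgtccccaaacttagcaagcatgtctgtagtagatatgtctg
Dnah10 (chr5:124724835-124725134, plus strand): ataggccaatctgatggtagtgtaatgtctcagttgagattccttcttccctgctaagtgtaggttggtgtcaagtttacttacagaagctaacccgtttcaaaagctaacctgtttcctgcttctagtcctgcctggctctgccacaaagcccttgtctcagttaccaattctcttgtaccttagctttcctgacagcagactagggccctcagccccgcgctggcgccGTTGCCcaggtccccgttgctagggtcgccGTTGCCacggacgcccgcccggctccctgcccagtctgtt
Cfap43 (chr19:47837312-47837611, minus strand): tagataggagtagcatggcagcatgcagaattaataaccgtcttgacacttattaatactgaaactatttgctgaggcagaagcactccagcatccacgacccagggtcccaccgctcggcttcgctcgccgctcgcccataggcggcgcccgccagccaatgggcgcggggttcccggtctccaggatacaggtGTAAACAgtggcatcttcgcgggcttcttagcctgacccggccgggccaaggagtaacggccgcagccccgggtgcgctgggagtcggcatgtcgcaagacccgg
The Tekt1 promoter shown holds 2 half-sites in opposite orientation, and the other Tekt1 promoter in RefSeq holds 0. The single promoter of Dnah10, an inner arm heavy chain, holds 2 in the same orientation. Drc1 and Cfap141 hold 1 each.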

How the data were processed

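Expected counts per gene and library were made by the authors, and 20.1% to 24.2% of nonzero values per library are not whole. TPM come from a second deposited table of the authors. Gene length, an other value in bases, and group means (8 columns, not used here) are also in these tables, per the file headers. Build mm8 and Bowtie 0.12.2 are named, per the submitters' processing notes, without their role, so no gene coordinates are given; promoter coordinates come from the RefSeq table. The labels' extraction protocol speaks of retinas, the tissue field of lung. The members and lists were chosen with earlier results of these data known.

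Expected counts were rounded to whole counts. The filter on low counts was filterByExpr of edgeR with the groups (count of at least 10, total of at least 15), which kept 17879 genes, and TMM scaled the libraries. All 15 libraries entered 1 fit of 4 group means, and 5 contrasts were tested by quasi-likelihood F tests in edgeR (robust), with Benjamini-Hochberg adjustment over all tested genes. Log2 CPM used a prior count of 2. Long members exceed 3000 bases. The length offset was a lowess curve (span 0.3) of each library's log2 deviation along log2 length. Named genes were, per family, the highest by TPM, the longest and the shortest, per comparison the 3 of smallest edgeR p, and Foxj1; the paired genes, Dnah5, Drc1, Dnah10 and others named for a pattern were chosen after their values were seen. Markers were summed as normalised CPM. Alternatives were other scaling factors, other filters, DESeq2, limma-voom with quality weights, TPM with a pseudocount of 1 or 0.1, other length divisions, a replicate block, leaving out each library, and fits without the 3 libraries with thymocyte markers or with a length offset. Fits leaving out control 1, DMSO 1, DMSO 4, silica 7 or silica_DMSO 5 besides those 3 were chosen after seeing the data. Tools were R 4.3.3, edgeR 4.0.16, limma 3.58.1, DESeq2 1.42.0 and Python 3.11.15 with matplotlib 3.10.9; tests were tried on simulated data.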

Additional observations from a re-analysis of the deposited data

Results flagged for a closer look

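In groups of 4 libraries, 84 sets of values were examined for a library far from the other 3, and 8 stood apart. Chance gives about 1 in 20 for independent, normally spread sets. These genes share libraries, so the 8 cannot be set against that rate. Dnah8 was at 74.2 normalised CPM in DMSO 7, against 6.36 to 6.89 in the other DMSO libraries. Cfap141 was at 293 in silica_DMSO 5, against 0.51 to 31.6, and Rsph9 at 139 in the same library, against 1.07 to 17.7. In silica_DMSO 2, Cfap47 was at 3.85 against 0.05 to 0.41, and Cfap65 at 29.9 against 0.19 to 5.08. That library is the only one of its group with neither thymocyte markers nor the length tilt of silica_DMSO 5. Dnah14 was at 22.2 in control 1, against 0.53 to 0.90, and at 11.5 in silica_DMSO 5, against 0.74 to 1.47. Gas8, a subunit of the nexin-dynein regulatory complex, was at 23.2 in control 7, against 17.6 to 18.3.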

How the results depend on the processing

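The count of members called was 0 in every comparison under edgeR and DESeq2, including each library left out. limma-voom with quality weights called 31 members in DMSO against control, 64 in silica_DMSO against silica, 65 in silica_DMSO against DMSO and 65 for the interaction, and its median changes in the last 3 were -4.40, -4.84 and -5.31. With replicate numbers as a block (replicate block) the median was -3.34 for silica_DMSO against DMSO and -3.51 for the interaction, -2.18 for silica_DMSO against silica, 1.18 for DMSO against control and 0.11 for silica against control. It called 0 members. Same-numbered libraries did not resemble each other: 13 such pairs correlated between -0.49 and 0.27, 4 of them over 0.1. Of 14 libraries, 0 correlated best with its own number. These correlations are of deviations from group means, which also hold the thymocyte markers and the length tilt, so they cannot exclude pairing. The Dnah14 change for silica against control reversed to 0.20 under limma-voom, ran from -3.05 without silica 7 to 0.58 without control 1 as single libraries were left out, and was 0.56 without control 1 and the 3 libraries with thymocyte markers. For silica_DMSO against silica, Cfap43 and Cfap65 reversed to 0.0103 and 0.10 without silica_DMSO 5 and those 3. The causes were not tested. The long-minus-short difference per group was 0.09 ± 0.56 in control, -0.54 ± 1.09 in DMSO, -0.04 ± 0.85 in silica and -0.93 ± 1.13 in silica_DMSO libraries (SD), and on TPM the last was 0.19. On TPM with limma-trend the members' median turned to -0.18 (pseudocount 1) and -0.25 (0.1) for DMSO against control, was 0.07 and 0.09 for silica against control, -1.15 and -2.02 for silica_DMSO against silica, -0.82 and -1.57 for silica_DMSO against DMSO, and -0.87 and -1.64 for the interaction. Counts under 10 limit most members in silica_DMSO 6.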
